A study of Mus musculus with 14 samples.

Results

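GABA-A receptors are chloride channels built from 5 subunits, and the sign of their effect on a neuron is set by the chloride gradient that membrane transporters maintain. The genes described here are 4 alpha subunit genes (Gabra2, Gabra3, Gabra4 and Gabra5), 2 beta subunit genes (Gabrb1 and Gabrb2) and Slc12a5, which encodes the neuronal chloride exporter KCC2. They are 7 of the 23352 genes with different names in the deposited table, and they were listed by symbol, with the locus of the highest mean kept for each. All 7 passed the filter on low values (a mean of at least 10 normalised fragments over the libraries compared) in both mouse models.

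RNA-seq of hippocampi dissected from mouse embryos of embryonic day 16 to 18 gave 14 libraries. There were 3 libraries of 189N3 mice, which carry an extra copy of Dyrk1a as the transgene Tg(Dyrk1a)189N3Yah, and 3 of their wild-type littermates. There were 4 libraries of Dp(16)1Yey/+ mice, in which the region of chromosome 16 from Lipi to Zfp295 is duplicated, and 4 of their wild-type littermates. For neuronal cultures the methods name wild-type mice of the OF1 strain, and wild-type mice of the C57BL6 strain beside both transgenic lines. They name no strain separately for the sequenced embryos. The methods give neither the sex of the embryos nor whether each library came from 1 embryo, so the p-values measure the spread between these libraries. Levels of Xist and of a Y-linked gene, given below, place RNA of both sexes in every library of the Dp(16)1Yey/+ line. Each model was set against its own littermates to ask which genes its extra gene dosage alters. None of the 7 genes lies on chromosome 16.

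In the adult brain, alpha subunits decide much of a receptor's kinetics and location. Gabra2 and Gabra3 are typical of synaptic receptors, and Gabra5 is typical of extrasynaptic receptors of the hippocampus. Gabra4 is known from extrasynaptic receptors that contain the delta subunit. Beta subunits complete the binding site for GABA, and a gamma subunit completes most synaptic receptors. In immature neurons the chloride importer NKCC1, encoded by Slc12a2, prevails and GABA depolarises; Slc12a5 rises as neurons mature and GABA becomes inhibitory. Many of the subunit genes stand side by side in the genome, in clusters that hold alpha, beta and gamma genes.

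Coordinates are those of mm10 (GRCm38) in GENCODE vM21. Gabra2 (chr5:70957597-71095849), Gabra4 (chr5:71569749-71658308) and Gabrb1 (chr5:71658113-72149037) stand in 1 cluster on chromosome 5, together with Gabrg1. Gabra4 on the minus strand and Gabrb1 on the plus strand start head to head, and their annotated spans overlap by 196 bp. Gabra5 (chr7:57407672-57510059) lies on chromosome 7 and Gabrb2 (chr11:42419757-42629028) on chromosome 11, where it neighbours Gabra6. Gabra3 lies on the X chromosome (chrX:72432681-72656848), and Slc12a5 lies on chromosome 2 (chr2:164960802-164999731). The library kit kept the strand of the RNA, whereas the use of strand in counting is not stated, so reads of the overlapping stretches, also those of the antisense genes Gm9962 at Gabra5 and Gm38562 at Gabrb1, may have been shared.

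The bases just before the start sites (RefSeq, GRCm38.p6, minus strand for all 4 genes, 5′ to 3′, exon-free bases only) are shown for 4 alpha subunit genes. As described below, Gabra2 and Gabra4 varied together, and Gabra3 and Gabra5 varied with each other and with Gabrb2. A link between these sequences and the levels was not tested. Capitals mark each CG dinucleotide.
Gabra2: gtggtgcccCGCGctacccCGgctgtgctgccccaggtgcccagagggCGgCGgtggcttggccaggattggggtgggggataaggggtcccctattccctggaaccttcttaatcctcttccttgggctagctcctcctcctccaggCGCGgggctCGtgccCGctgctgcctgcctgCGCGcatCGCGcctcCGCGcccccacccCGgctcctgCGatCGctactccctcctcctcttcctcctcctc
Gabra4: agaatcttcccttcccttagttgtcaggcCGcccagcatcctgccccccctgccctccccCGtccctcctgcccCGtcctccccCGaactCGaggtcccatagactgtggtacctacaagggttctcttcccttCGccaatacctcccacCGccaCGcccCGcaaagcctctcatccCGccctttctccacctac
Gabra5: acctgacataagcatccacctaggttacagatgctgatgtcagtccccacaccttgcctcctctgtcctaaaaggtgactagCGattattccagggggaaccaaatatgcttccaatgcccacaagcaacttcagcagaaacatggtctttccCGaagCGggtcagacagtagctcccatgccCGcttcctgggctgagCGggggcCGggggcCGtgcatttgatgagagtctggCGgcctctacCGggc
Gabra3: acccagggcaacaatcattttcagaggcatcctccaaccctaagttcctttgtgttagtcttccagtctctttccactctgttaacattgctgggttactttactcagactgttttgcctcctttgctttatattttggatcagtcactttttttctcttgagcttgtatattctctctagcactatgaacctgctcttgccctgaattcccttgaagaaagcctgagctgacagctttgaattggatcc
The windows are chr5:71095850-71096099, chr5:71658364-71658558, chr7:57510060-57510309 and chrX:72656920-72657169. In the 250 bases before the start, Gabra2 had a GC content of 70% and 18 CG dinucleotides, and Gabra4 had 61.2% and 12, of which 10 fall in the 195 bases shown. Gabra5 had 56.4% and 9, and Gabra3 had 42.4% and 0. Over 32851 RefSeq windows of the same length the median was 52.4% (quartiles 45.2% and 61.2%) with 6 CG dinucleotides (quartiles 2 and 16). Gabra2 therefore stood above the upper quartile and Gabra3 below the lower quartile on both measures. Of the other genes, Gabrb1 had 18 (GC content 64.4%), Gabrb2 had 8 and Slc12a5 had 13 before the first start listed.

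The libraries held between 20809135 and 29098454 fragments, and 1 fragment was worth 0.816 to 1.21 units of the normalised scale. Dyrk1a stood at 3938 to 5877 in 189N3 mice and at 2126 to 2977 in their littermates (log2 fold change 0.89 ± 0.24, adjusted p = 1, limma). Over 85 named genes of the duplicated region, the median log2 difference from the mean of the 4 littermates was 0.686, 0.577 and 0.399 in Dp(16)1Yey/+ replicates 0, 2 and 3. It was 0.0953 in the library labelled Dp(16)1Yey/+ replicate 1, which was kept under its label, and results are also given without it. Over the other named genes the median was 0.145, -0.0636 and -0.241 in replicates 0, 2 and 3, and -0.0355 in the library labelled replicate 1. The wild-type libraries of the Dp(16)1Yey/+ line formed nearly alike pairs: replicates 0 and 1 differed by 1.65 times, and replicates 2 and 3 by 2.003 times, the counting noise of loci with a mean of at least 100, whereas libraries of different pairs differed by 31.5 to 36.5 times that noise. They were kept as separate samples, with both members of each pair also averaged as an alternative. The limma and exact p-values of this line therefore count each of these libraries as independent. Markers of the labelled tissue (Prox1, Zbtb20, Lef1, Wfs1, Grik4, Man1a, Nr3c2 and Etv1) all had a mean of at least 10 in every group, and their summed level ranged from 2805 in the library labelled Dp(16)1Yey/+ replicate 1 to 10365 in littermate replicate 0 of that line. In bulk tissue, fewer cells of a type and less RNA per cell cannot be told apart.

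Levels of different genes can be compared only per length. Per kb of annotated exon, the mean level over the 14 libraries was highest among the 7 genes for Gabrb2, at 584 ± 265 normalised fragments per kb (SD, n = 14), followed by Gabra5 at 431 ± 235 and Gabra3 at 211 ± 121. Gabra2 stood at 143 ± 41.8 per kb and Gabra4 at 133 ± 33.2, a gap smaller than the spread of either. Slc12a5, at 44.1 ± 37.6 per kb, and Gabrb1, at 39.4 ± 13.9, were the least abundant and could not be ordered either. Gabrg1, the gamma gene of the chromosome 5 cluster, stood at 36.7 ± 20.9 per kb. Slc12a2 stood at 172 ± 24.1 per kb. With the longest protein-coding transcript as the length in place of all exons, Gabrb2 stood at 931, Gabra2 at 187 and Gabra4 at 197 per kb, so that Gabra2 and Gabra4 changed places.

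Shares within a library were taken of the summed level per kb of 5 alpha subunit genes, Gabra2 to Gabra6. Gabra5 supplied the largest share in 12 of the 14 libraries. Its share was 49.7% to 53.9% in the 6 libraries of the 189N3 line and 28.1% to 48.04% in the 8 of the Dp(16)1Yey/+ line. In the library labelled Dp(16)1Yey/+ replicate 1 Gabra3 led with 32.52% against 32.03% for Gabra5, and in replicate 2 Gabra2 led with 31.2% and Gabra4 followed with 28.3%. Gabra3 took 11.6% and 12.6% in littermate replicates 0 and 1 of the Dp(16)1Yey/+ line, and 27.1% and 27.9% in replicates 2 and 3. The shares of Gabra2 moved the other way in the same libraries, from 24.3% and 25.05% to 11.8% and 13.05%. Gabra6, a subunit typical of the cerebellum, held at most 0.516% in any library.

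**Figure D1:**
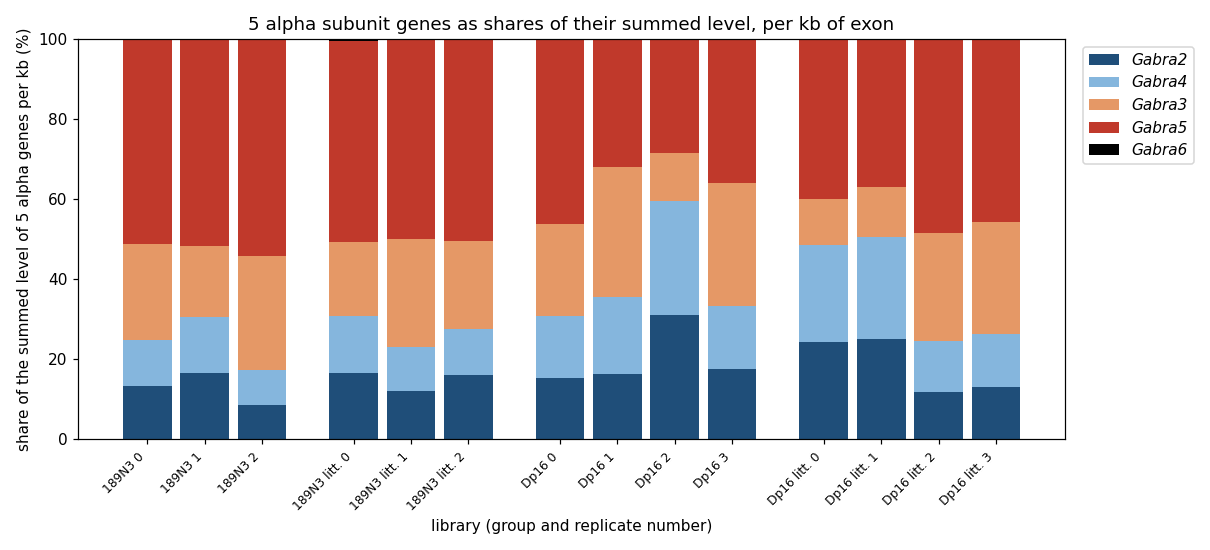
Share of each of 5 alpha subunit genes in their summed level (percent, per kb of annotated exon) in each of the 14 libraries, with groups set apart along the horizontal axis (Dp16 stands for Dp(16)1Yey/+, litt. for littermate). Gabra5 holds 49.7% to 53.9% in the 189N3 line, whereas the blue stretches of Gabra2 and Gabra4 are widest in Dp(16)1Yey/+ replicate 2 and in littermate replicates 0 and 1 of that line.

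Of the 7 genes, Gabra5 was the only one whose difference in either model had an unadjusted p under 0.05. It stood at 1083, 308, 538 and 502 normalised fragments in Dp(16)1Yey/+ replicates 0 to 3, and at 743, 680, 1408 and 1254 in the 4 littermates. Replicates 1, 2 and 3 of Dp(16)1Yey/+ mice lay below every littermate library, and replicate 0 lay among the littermates, so the groups overlapped. The log2 fold change was -0.83 ± 0.36 (SE of limma), with an unadjusted p of 0.0414 and an adjusted p of 0.909 (limma, Benjamini-Hochberg over 36024 loci), and the exact two-sided permutation test gave p = 0.143. Across all loci, 1.82% were lower and 1.71% higher with an unadjusted p under 0.05 in this comparison. The difference was -0.55 when the library labelled Dp(16)1Yey/+ replicate 1 was left out, and none of the 7 genes then had an unadjusted p under 0.05. In 189N3 mice Gabra5 stood at 1563, 1786 and 2808, against 1507, 2081 and 1705 in the littermates, and the groups overlapped (log2 fold change 0.18 ± 0.26). All 6 libraries of the 189N3 line, from 1507 to 2808, lay above all 8 of the Dp(16)1Yey/+ line, from 308 to 1408; 1.28% of all loci did so and 3.41% stood in the opposite order. Gabra5 was the only one of the 7 genes whose lines separated, and the line cannot be told apart from anything else that differed between the sets of libraries.

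Gabra3, the X-linked alpha subunit, varied widely within groups. In the littermates of Dp(16)1Yey/+ mice it stood at 285 and 309 in replicates 0 and 1 and at 1046 and 1012 in replicates 2 and 3, a ratio of 3.46 between the means of the nearly alike pairs. The 4 Dp(16)1Yey/+ libraries, at 707, 413, 307 and 569, fell between these pairs, with replicate 2 level with the lower pair. The log2 fold change over all 8 libraries was -0.22 ± 0.44 (adjusted p = 0.934, limma). It was -1.11 against replicates 2 and 3 alone and 0.68 against replicates 0 and 1 alone, so the direction was set by which littermates were used. In 189N3 mice Gabra3 stood at 970, 823 and 1963 against 735, 1485 and 975, a log2 fold change of 0.19 ± 0.33 that turned to -0.19 without 189N3 replicate 2 and to -0.05 without littermate replicate 0.

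Gabra2 and Gabra4, the alpha subunit genes of the chromosome 5 cluster, varied alike and unlike Gabra3. Gabra2 stood at 930, 402, 1531 and 628 in Dp(16)1Yey/+ replicates 0 to 3 and at 1166, 1191, 892 and 923 in the littermates. Gabra4 stood at 738, 377, 1105 and 450 in Dp(16)1Yey/+ mice and at 926, 962, 764 and 754 in the littermates. For both genes, Dp(16)1Yey/+ replicate 2 was the highest of these 8 libraries and the library labelled replicate 1 the lowest, so the model's values enclosed those of the littermates. The log2 fold changes were -0.42 ± 0.34 for Gabra2 and -0.47 ± 0.30 for Gabra4 (adjusted p = 0.909 for both, limma). Without the library labelled Dp(16)1Yey/+ replicate 1 they were -0.10 and -0.24. In 189N3 mice Gabra2 stood at 1057, 1490 and 1168 against 1275, 1296 and 1393, and Gabra4 at 715, 990 and 920 against 883, 955 and 813. These groups overlapped, with log2 fold changes of -0.11 ± 0.23 for Gabra2 and -0.03 ± 0.23 for Gabra4; that of Gabra4 turned to 0.01 with median-ratio size factors.

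Of the beta subunits, Gabrb1 was the scarcer and had the wider spread in Dp(16)1Yey/+ mice. It stood at 548, 123, 548 and 254 in their replicates 0 to 3, and the 4 littermates lay close together at 524, 539, 493 and 515. Replicates 0 and 2 were slightly above every littermate library, and the library labelled replicate 1 and replicate 3 far below. The log2 fold change was -0.73 ± 0.40 (unadjusted p = 0.0944, adjusted p = 0.909, limma), and -0.29 without the library labelled replicate 1. In 189N3 mice Gabrb1 stood at 464, 806 and 682 against 707, 847 and 574, which overlapped, and its log2 fold change of -0.14 ± 0.26 turned to 0.08 without replicate 0.

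Gabrb2, the most abundant of the 7 genes, showed the smallest difference in Dp(16)1Yey/+ mice. It stood at 3776, 2022, 1614 and 2704 in these mice and at 1927, 2010, 3140 and 3110 in their littermates, with group means of 2529 ± 945 (SD, n = 4) and 2546 ± 669 (SD, n = 4). The log2 fold change was -0.05 ± 0.27 and its sign turned in 5 of the 25 alternatives computed for it. In 189N3 mice it stood at 4877, 5066 and 7346 against 3636, 5480 and 5282, the largest difference of the 7 genes in this model, at 0.26 ± 0.25 (adjusted p = 1, limma). The 2 groups overlapped, since 2 of the 3 littermate libraries lay above 2 of the 3 libraries of 189N3 mice.

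Slc12a5 had the largest spread relative to its mean in both groups of the Dp(16)1Yey/+ line. It stood at 407, 106, 98.0 and 231 in Dp(16)1Yey/+ replicates 0 to 3, and at 151, 155, 901 and 897 in the littermates. Littermate replicates 2 and 3 exceeded every Dp(16)1Yey/+ library and were 5.86 times as high as replicates 0 and 1, which fell among the Dp(16)1Yey/+ libraries. The log2 fold change was -1.07 ± 0.66 (unadjusted p = 0.133, adjusted p = 0.909, limma), with p = 0.257 by the exact two-sided permutation test. Against littermate replicates 2 and 3 alone it was -2.34, and against replicates 0 and 1 alone it was 0.21. In 189N3 mice Slc12a5 stood at 164, 134 and 615 against 185, 369 and 184, with means of 304 ± 270 and 246 ± 107 (SD, n = 3 each). On the log2 scale they differed by 0.04 ± 0.46. Replicate 2 of 189N3 mice alone was above the littermates, and without it the value was -0.65.

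**Figure D2:**
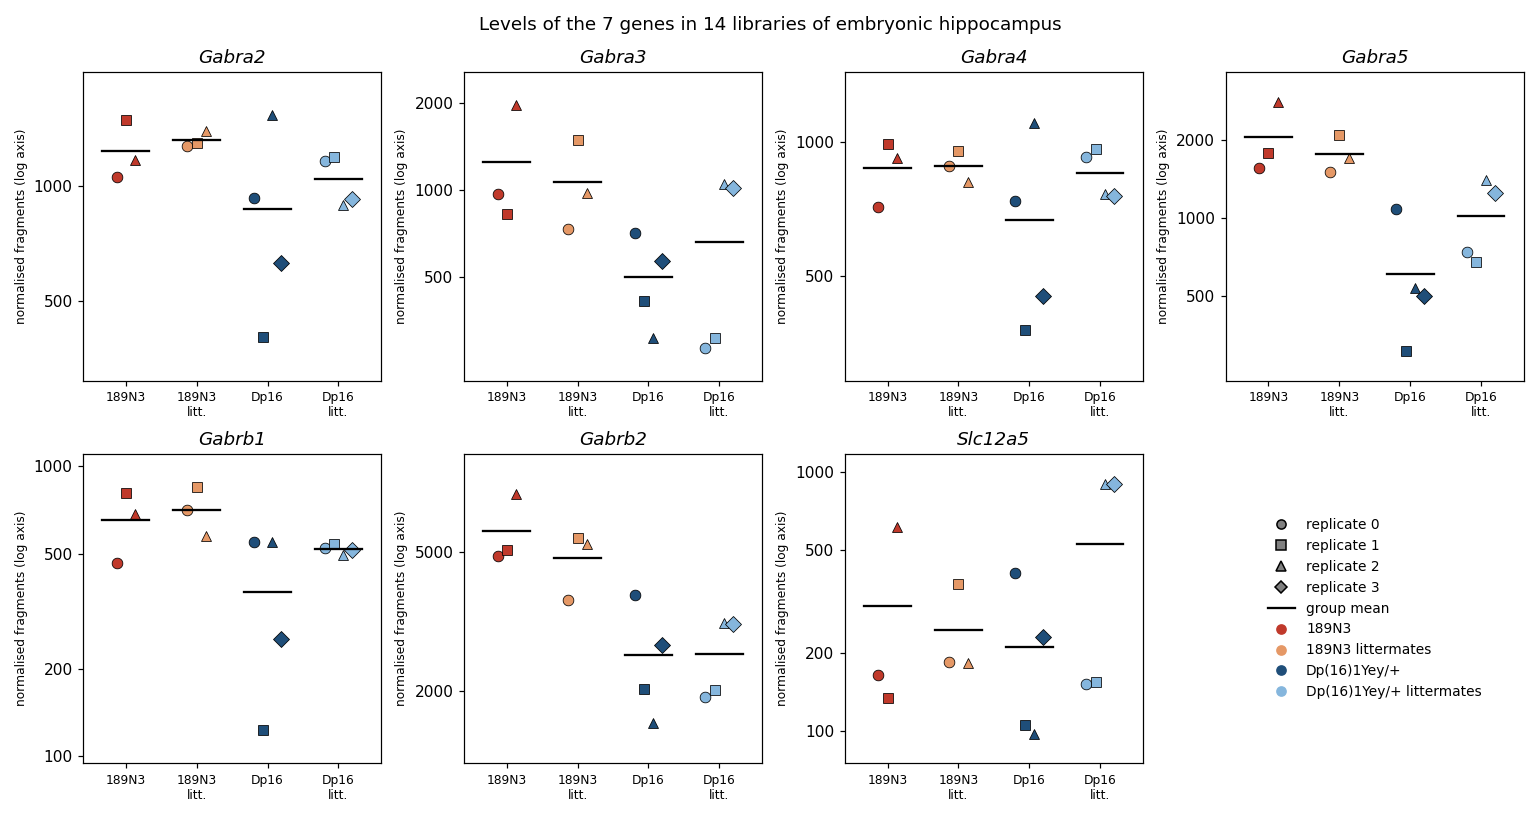
Normalised fragments (log axis) of the 7 genes in each library, by group (Dp16 stands for Dp(16)1Yey/+, litt. for littermates), with symbols for the replicate number and a bar at the group mean. The littermates of Dp(16)1Yey/+ mice (light blue) split by replicate pairs for Gabra3 (285 and 309 against 1046 and 1012) and Slc12a5 (151 and 155 against 901 and 897), and stay together for Gabrb1 (493 to 539).

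No locus passed the adjusted threshold in either comparison by limma (0% of 35899 loci in 189N3 mice and of 36024 in Dp(16)1Yey/+ mice). At an unadjusted p under 0.05 stood 672 loci (1.87%; 0.825% higher and 1.05% lower) in 189N3 mice and 1273 (3.53%) in Dp(16)1Yey/+ mice. On the recovered fragments edgeR called 0 loci in both models, and DESeq2 called 15 and 8. Of the 7 genes, 0 in 189N3 mice and 1 in Dp(16)1Yey/+ mice had an unadjusted p under 0.05. For none of the 7 did the groups separate, beside 4.98% and 2.45% of all loci.

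In Dp(16)1Yey/+ mice the log2 fold changes of the 7 genes ran from -1.07 to -0.05 with a median of -0.47, beside a median of -0.05 over 14693 named loci. All 7 lay below 0, as did 45.1% of all loci tested, named or not, whose median was 0.03. Among named loci alone, with their median of -0.05, more lay below 0 than above. Also below 0 lay 8 of 8 hippocampus markers (median -0.59), 6 of 6 astrocyte markers (-0.47), 5 of 5 markers of oligodendrocyte precursors (-0.53) and 14 of 17 genes of neuron maturation (-0.42). Other lists did not lie mostly below 0, with 4 of 8 neocortex markers (median 0.007) and 5 of 12 neural progenitor markers (0.039) there. The median of the 7 genes was -0.24 without the library labelled Dp(16)1Yey/+ replicate 1. In 189N3 mice they ran from -0.14 to 0.26 with a median of 0.04, equal to that over 14811 named loci. Here 3 of 7 lay below 0, beside 56.2% of all loci, named or not, whose median was -0.04.

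The difference of the genotype effect between the models (Dp(16)1Yey/+ minus littermates, less 189N3 minus littermates) was below 0 for each of the 7 genes. It ran from -0.31 ± 0.40 for Gabrb2 and -0.31 ± 0.45 for Gabra2 to -1.10 ± 0.99 for Slc12a5. It was below 0 for 42.8% of all loci, with a median of 0.08 over all loci and of -0.08 over named loci. It was also below 0 for 8 of 8 hippocampus markers (median -0.81), 6 of 6 astrocyte markers (-0.62) and 15 of 17 genes of neuron maturation (-0.71). For neocortex markers it was below 0 in 6 of 8 (-0.29), and for neural progenitor markers in 2 of 12 (0.12). That of Gabra5 was -1.01 ± 0.50 (unadjusted p = 0.0620, adjusted p = 0.922, limma), and 2.66% of all 36045 loci had an unadjusted p under 0.05 (1.53% higher and 1.12% lower). None of the 7 genes was among these, and 0% of loci passed the adjusted threshold. Without littermate replicates 2 and 3 of the Dp(16)1Yey/+ line the values of Gabra3, Gabrb2 and Slc12a5 were above 0.

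**Figure D3:**
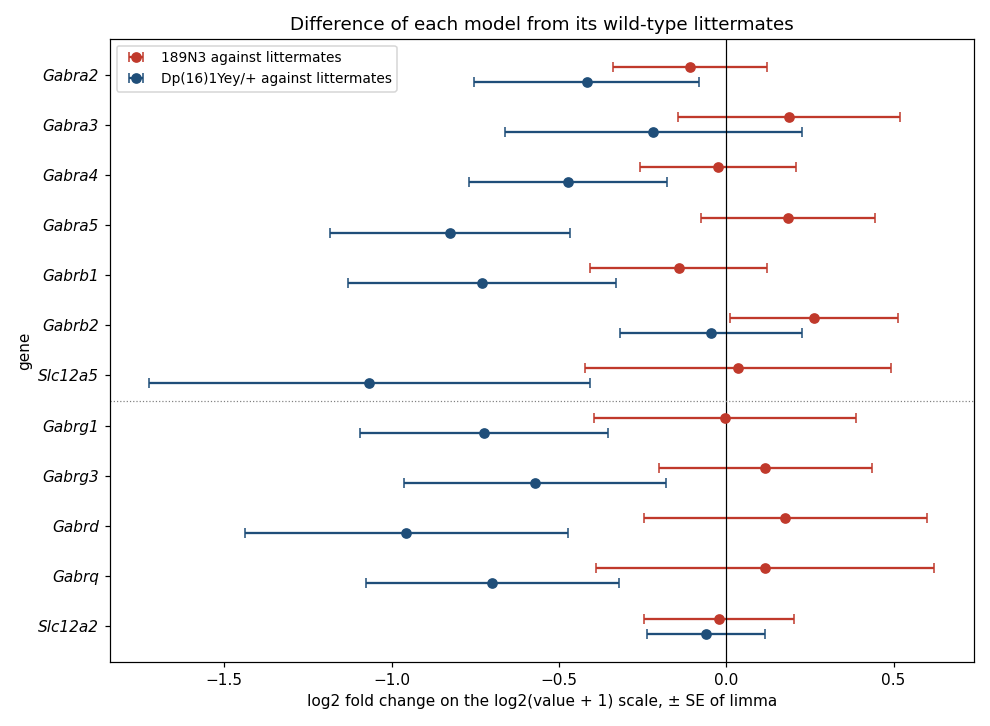
Log2 fold change of each gene against its own littermates on the log2(value + 1) scale, with bars of 1 SE of limma, for the 7 genes (above the dotted line) and for 4 other subunit genes and Slc12a2 (below it). Values in Dp(16)1Yey/+ mice reach from -1.07 for Slc12a5 to -0.05 for Gabrb2, and those in 189N3 mice stay between -0.14 and 0.26.

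Of 10 other GABA-A subunit genes examined, 4 passed the filter. All 4 (Gabrg1, Gabrg3, Gabrd and Gabrq) had log2 fold changes below 0 in Dp(16)1Yey/+ mice, with a median of -0.71, and 3 of 4 were above 0 in 189N3 mice, with a median of 0.12. None had an unadjusted p under 0.05. Gabrd, the delta subunit of extrasynaptic receptors, had the largest difference, at 14.3 ± 9.58 against 24.3 ± 6.70 (SD, n = 4 each), a log2 fold change of -0.96 ± 0.48. Gabrg1 stood at 161 ± 44.0 against 291 ± 153, a log2 fold change of -0.72 ± 0.37. Gabrg3, a gamma gene next to Gabra5, had -0.57 ± 0.39, and Gabrq, which encodes the theta subunit and lies near Gabra3, had -0.70 ± 0.38. Gabra6, Gabre, Gabrp, Gabrr1, Gabrr2 and Gabrr3 did not pass the filter, with means under 11 in every group.

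Slc12a2, the importer set against Slc12a5 in chloride balance, was nearly level between groups. It stood at 1755 ± 357 in Dp(16)1Yey/+ mice and 1806 ± 171 in their littermates (log2 fold change -0.06 ± 0.18), and at 2008 ± 324 against 2024 ± 110 in 189N3 mice. Of 15 chloride transport genes tested, 0 had an unadjusted p under 0.05 in either model, and the smallest p in both models was that of Slc4a8, a sodium-driven chloride bicarbonate exchanger, with log2 fold changes of 0.42 ± 0.25 and -0.45 ± 0.24. Within a library, where the size factor cancels, the log2 ratio of Slc12a5 to Slc12a2 ran from -4.46 in Dp(16)1Yey/+ replicate 2 to -0.86 in littermate replicate 3 of that line. Every library thus held fewer fragments of Slc12a5 than of Slc12a2. The ratio averaged -3.28 ± 1.11 in Dp(16)1Yey/+ mice and -2.27 ± 1.60 in the littermates (SD, n = 4 each; exact two-sided permutation p = 0.286), and -3.06 ± 0.97 against -3.11 ± 0.64 in the 189N3 line (SD, n = 3 each; exact permutation p = 0.9).

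The makeup of the receptor by within-library ratios did not separate the groups either. The log2 ratio of Gabra5 to Gabra2 was -0.50 ± 0.73 in Dp(16)1Yey/+ mice and -0.09 ± 0.75 in their littermates (exact permutation p = 0.514, n = 4 each), and 0.70 ± 0.52 against 0.40 ± 0.24 in the 189N3 line. That of Gabra3 to Gabra2 ran from -2.31 to 0.75 over the 14 libraries. The smallest of the 6 exact p-values of these ratios was 0.286, and all 6 were 1 after Benjamini-Hochberg adjustment. The smallest p of this exact test is 0.1 for 3 against 3 libraries and 0.0286 for 4 against 4, with every library counted as independent. The littermates of Dp(16)1Yey/+ mice formed nearly alike pairs, so for that line these exact p-values may count more independent samples than there were.

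Of the genes that act around the receptor, none passed the adjusted threshold in either model. Of 22 genes of the inhibitory postsynapse, 1 had an unadjusted p under 0.05 in Dp(16)1Yey/+ mice, beside 3.53% of all loci. This was Igsf9b, an adhesion molecule of inhibitory synapses, at 133 ± 53.6 against 223 ± 91.0 (log2 fold change -0.74 ± 0.32, unadjusted p = 0.0392, adjusted p = 0.909, limma). Gphn, which encodes the receptor scaffold gephyrin, stood at 1286 ± 225 against 1579 ± 282 in this model and at 1645 ± 352 against 1521 ± 244 in 189N3 mice. Of 7 genes of GABA synthesis and uptake examined, 0 had an unadjusted p under 0.05 in either model. The smallest p in Dp(16)1Yey/+ mice was that of Abat, the transaminase that breaks down GABA, at 359 ± 86.7 against 492 ± 126 (log2 fold change -0.45 ± 0.23, adjusted p = 0.909, limma). Of 5 GABA-B receptor genes, 1 had an unadjusted p under 0.05 in 189N3 mice, beside 1.87% of all loci. This was Kctd12, an auxiliary subunit, at 4175 ± 1127 against 2667 ± 184 (log2 fold change 0.61 ± 0.25, adjusted p = 1, limma). Of the glycine receptor genes, Glra2 stood at 1470 ± 69.1 against 1326 ± 336 in Dp(16)1Yey/+ mice and Glrb at 876 ± 120 against 847 ± 186, and Glra1 was at or near 0 throughout. Glra3 was low, at 4.94, 0, 0 and 9.06 in Dp(16)1Yey/+ replicates 0 to 3 and at 0, 0, 38.9 and 39.4 in the littermates. Its log2 fold change was -1.19, and none of the glycine receptor genes tested had an unadjusted p under 0.05 by limma.

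Across the 14 libraries the 7 genes fell into sets that varied together. The points of each correlation below are whole libraries that share size factors, lines and the nearly alike pairs, so the coefficients are descriptions of log2(value + 1) and carry no test. Gabra2, Gabra4 and Gabrb1, all of the chromosome 5 cluster, gave Pearson's r of 0.951 (Gabra2 with Gabra4), 0.919 (Gabra2 with Gabrb1) and 0.911 (Gabra4 with Gabrb1), with Spearman's rho of 0.851, 0.833 and 0.727. Gabra3, Gabra5 and Gabrb2, which lie on 3 different chromosomes, gave 0.913 (Gabra3 with Gabrb2), 0.888 (Gabra5 with Gabrb2) and 0.843 (Gabra3 with Gabra5). Between the sets r was lower, from 0.0923 for Gabra3 with Gabra4 to 0.788 for Gabra5 with Gabrb1. Slc12a5 reached 0.675 with Gabra3 and -0.0639 with Gabra2. Over the 8 libraries of the Dp(16)1Yey/+ line Gabra5 gave 0.751 with Gabrb1, above its 0.672 with Gabra3 and 0.677 with Gabrb2. Gabra5 was therefore not set apart from Gabrb1 within that line, where Gabra3 with Gabrb2 gave 0.883. Over the 6 libraries of the 189N3 line the 3 pairs of Gabra3, Gabra5 and Gabrb2 gave 0.883 to 0.929. Gabra5 with Gabrb1 gave 0.36 there.

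Over 10 subunit genes with a mean of at least 10, those of the same chromosome, a grouping made after these values were seen, had a median r of 0.742 over 8 pairs of genes, and those of different chromosomes 0.550 over 37 pairs. With each group's mean taken out the medians were 0.731 and 0.502. On chromosome 7 Gabra5 gave 0.865 with Gabrg3, with 0.731 over the 6 libraries of the 189N3 line and 0.807 over the 8 of the Dp(16)1Yey/+ line. The chromosome 5 cluster was uneven, since Gabra2 with Gabra4 gave 0.649 in the 189N3 line and 0.981 in the Dp(16)1Yey/+ line, and Gabrg1 gave 0.406 with Gabra2 and 0.434 with Gabra4. Gabra3 and Gabrq, both on the X chromosome, gave 0.460. Some pairs on different chromosomes had high values too, as Gabrg1 gave 0.873 with Gabra3 and 0.848 with Gabra5. The stretch shared by Gabra4 and Gabrb1 may have added to their r if strand was ignored in counting, which was not tested.

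**Figure D4:**
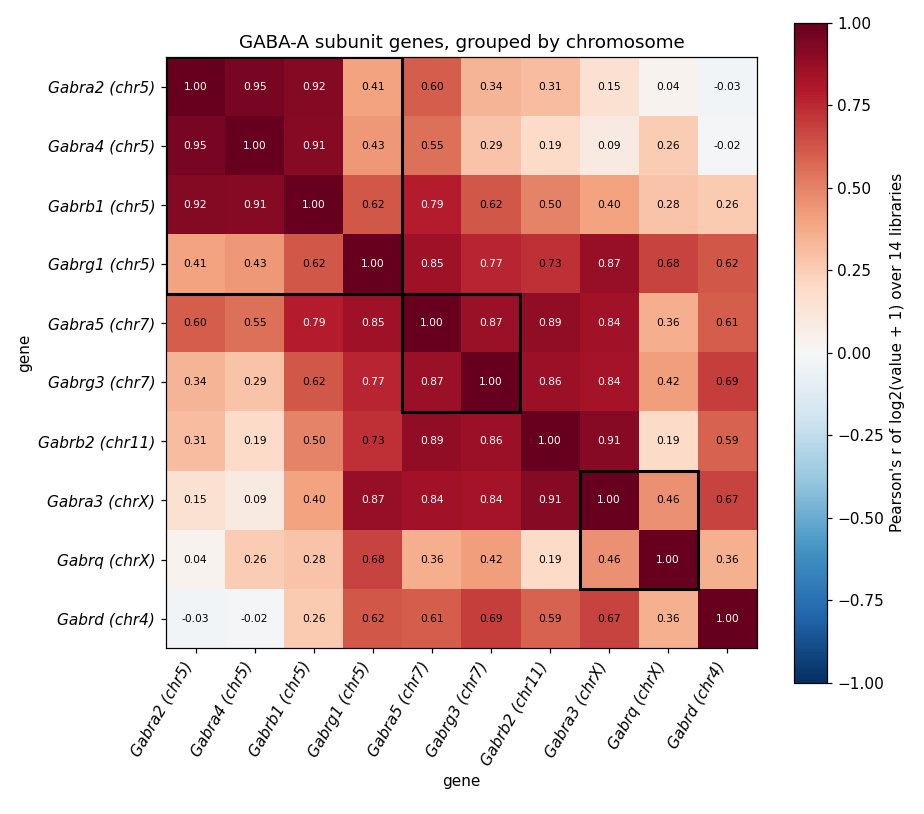
Pearson's r of log2(value + 1) over the 14 libraries for each pair of 10 GABA-A subunit genes with a mean of at least 10, ordered by chromosome, with boxes around genes of the same chromosome. On chromosome 5 Gabra2, Gabra4 and Gabrb1 give 0.911 to 0.951 with each other, whereas Gabrg1 gives 0.406 to 0.619 with them and 0.873 with Gabra3.

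Among 11244 named loci with a mean of at least 100, those most like each gene over the 14 libraries were found by Pearson's r. Gabra2 was most like AK021280 (0.962) and Pcdh20 (0.953), with Gabra4 in the third place, and Gabra4 was most like Tacr3 (0.959), Crym (0.956) and Clrn1 (0.953). Gabrb1 was most like Bdnf (0.983), a neurotrophin gene, then Epha6 (0.973) and Kcnk1 (0.973). Gabra3 was most like Nxph1 (0.981), Pgm2l1 (0.980) and Dpp10 (0.979), and Gabra5 was most like Mal2 (0.968) and Cdkl2 (0.967). Gabrb2 was most like Reps2 (0.992). Slc12a5 was most like Dnm1 (0.979), the neuronal dynamin gene of synaptic vesicle retrieval, then Kndc1 (0.971) and Neurl1a (0.970).

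The same sets differed in part in which marker lists they varied with, with Gabra5 and Gabrb1 in between for some lists. The summed level of the 8 hippocampus markers gave r of 0.842 with Gabra2, 0.886 with Gabra4 and 0.752 with Gabrb1. It gave 0.298 with Gabra5, -0.230 with Gabra3, -0.0152 with Gabrb2 and -0.263 with Slc12a5. Within lines, Gabra2, Gabra4 and Gabrb1 gave 0.537, 0.697 and 0.644 over 6 libraries and 0.905, 0.910 and 0.781 over 8. Zbtb20 was the largest part of the hippocampus sum in every library, so these values need not hold for each marker. The 6 astrocyte markers gave higher values with the same 3 genes, at 0.862, 0.958 and 0.912, and 0.593 with Gabra5. Within the 189N3 line the value of Gabra2 with the astrocyte markers was 0.296. The summed level of 17 genes of neuron maturation gave 0.884 with Gabra3, 0.863 with Gabra5 and 0.905 with Gabrb2. It gave 0.551 with Gabrb1, 0.324 with Gabra2 and 0.301 with Gabra4. With Slc12a5 it gave 0.567 over all libraries, and 0.815 and 0.812 within the 189N3 and Dp(16)1Yey/+ lines. The 5 markers of oligodendrocyte precursors gave 0.902 with Gabra3, 0.923 with Gabra5 and 0.90 with Gabrb2, and 0.59 with Gabrb1. Among the lists given here, Slc12a5 varied most closely over the 14 libraries with 12 interneuron markers (0.877) and with the 12 striatum markers in the table (0.810, with 0.905 and 0.811 within the lines). With the markers of oligodendrocyte precursors Slc12a5 gave 0.659, with 0.865 and 0.92 within the lines. Gabra3 gave 0.84 with the interneuron list. Gabra5, whose lines did not overlap, gave 0.15 with the striatum list over all libraries, but 0.923 and 0.490 within the 189N3 and Dp(16)1Yey/+ lines, and with the interneuron list 0.936 and 0.720 within them.

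These lists also set the nearly alike littermate pairs apart. In littermate replicates 0 and 1 of the Dp(16)1Yey/+ line the hippocampus list summed to 10365 and 9922 and the striatum list to 744 and 771. In replicates 2 and 3 the hippocampus list summed to 4476 and 4885 and the striatum list to 3137 and 3203. The neocortex list summed to 6568 and 6376 in the former pair and to 11567 and 12042 in the latter. Most of the hippocampus sum was Zbtb20, at 7734 and 7398 in the former pair and at 2254 and 2546 in the latter. Prox1, Lef1 and Nr3c2 were also lower in the latter pair, and Grik4 was nearly level. Etv1, Man1a and Wfs1 went the other way, with Etv1 at 361 and 374 in the former pair and at 767 and 763 in the latter. In the 4 Dp(16)1Yey/+ libraries the hippocampus list ranged from 2805 to 8830 and the striatum list from 640 to 1809, and all 12 striatum markers had a mean of at least 10 in both groups of this line. The pair with more of the striatum list had 0.770 times as much Gabra2 and 5.86 times as much Slc12a5 as the other pair. The part of these lists in the values of the 7 genes was not tested.

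**Figure D5:**
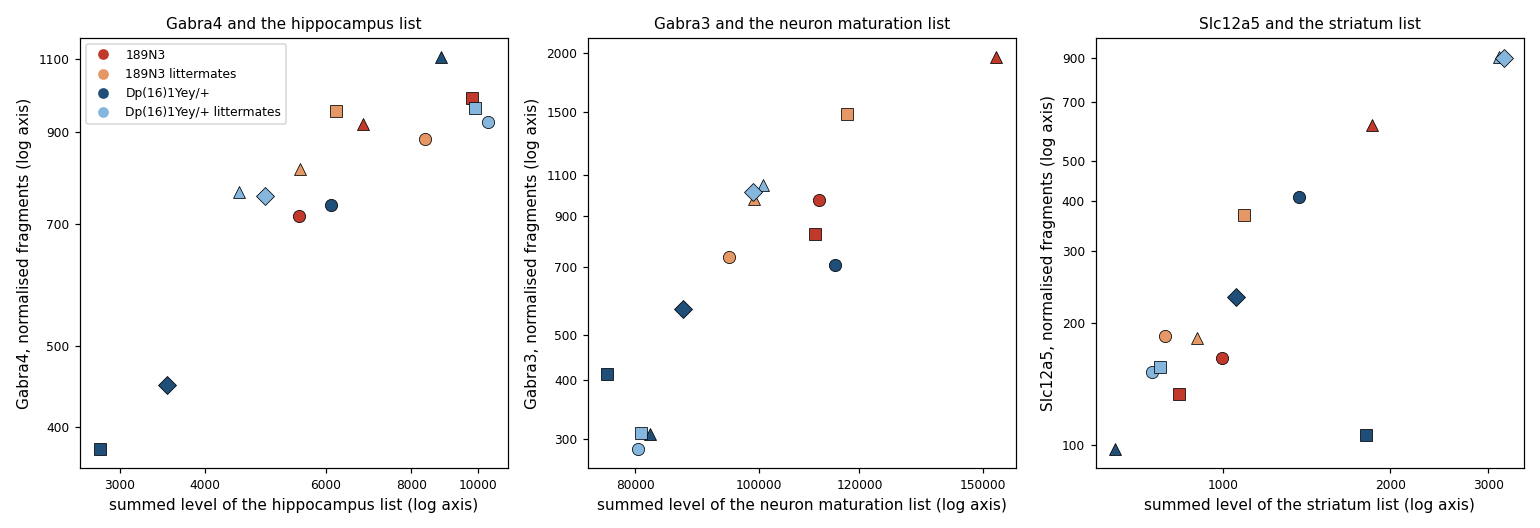
Normalised fragments of Gabra4, Gabra3 and Slc12a5 against the summed level of the hippocampus, neuron maturation and striatum lists in each of the 14 libraries (both axes log; colours give the group, symbols the replicate number as in the plot of the 7 genes by library). Gabra4 rises with the hippocampus list (r = 0.886), and Slc12a5 rises with the striatum list (r = 0.810), with the library labelled Dp(16)1Yey/+ replicate 1 far below the other points at its striatum level.

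Markers of blood and skin also differed between the groups. In 189N3 mice 6 of 6 erythroid markers tested and 5 of 7 skin and connective tissue markers were lower at an unadjusted p under 0.05. Of all loci 1.05% were, and none of these markers passed the adjusted threshold. The erythroid list summed to 13864 to 22152 in 189N3 mice and to 33811 to 54262 in their littermates, and to 6141 to 54233 against 4666 to 17281 in the Dp(16)1Yey/+ line. The skin and connective tissue list summed to 1180 to 2104 in 189N3 mice and 1996 to 5696 in their littermates. In Dp(16)1Yey/+ mice the direction was the opposite, with 6 of 6 erythroid markers (median log2 fold change 1.23) and 4 of 5 skin and connective tissue markers above 0. Of these, 1 and 2 had an unadjusted p under 0.05, beside 1.71% of all loci that were higher with such a p. The skin and connective tissue list summed to 459.8 to 3000 in these mice, highest in the library labelled replicate 1, where Gabra5 was lowest, and to 462 to 1141 in their littermates. Over the 8 libraries of the Dp(16)1Yey/+ line the skin and connective tissue list gave r of -0.935 with Gabra5, -0.803 with Slc12a5 and -0.721 with Gabrb1, and over the 6 of the 189N3 line -0.342, -0.214 and 0.186. The neural progenitor list summed to 80660 in the library labelled Dp(16)1Yey/+ replicate 1, and to 46313 to 65589 in the other libraries of that line. Over the 8 libraries it gave r of -0.789 with Gabra5, -0.779 with Gabrb2 and -0.773 with Slc12a5. With Gabra2 and Gabra4 it gave -0.254 and -0.187. In the 189N3 line it gave 0.375 with Gabrb2 and 0.623 with Slc12a5, and was also positive with Gabra5. Xist, which is expressed from the inactive X chromosome, ranged from 88.4 to 43004 normalised fragments over the libraries. Every library of the Dp(16)1Yey/+ line held both Xist (4096 to 20962) and the Y-linked Ddx3y (582 to 1465). In the 189N3 line Ddx3y was 0 in 189N3 replicate 0, and Xist was lowest in littermate replicate 0, where Ddx3y stood at 2335. With Xist as a covariate 0 of the 7 genes had an unadjusted p under 0.05 in Dp(16)1Yey/+ mice. The part of these values in the results was not tested.

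The isoform table divided the 7 genes among 23 isoforms with a mean of at least 10. Gabrb1 had a single isoform, and 1 isoform held 93.7% of Gabra4, 87.9% of Gabra3, 83.6% of Gabrb2 and 77.2% of Slc12a5 in the mean over the libraries. Gabra2 was divided 57.7%, 30.3% and 12.01% among 3 isoforms, and the leading isoforms of Gabra5 held 54.8% and 29.97%. Of 21 isoforms tested in 189N3 mice and 23 in Dp(16)1Yey/+ mice, 0 passed the adjusted threshold, beside 0.0366% and 0.0214% of all isoforms. An isoform of Gabrb2 with a mean of 27.9 (uc011xte.1) was the only 1 with an unadjusted p under 0.05, at 9.39 ± 16.3 in 189N3 mice and 50.6 ± 33.0 in their littermates (unadjusted p = 0.0331, adjusted p = 1, limma), with overlapping groups; of all isoforms 2.56% in 189N3 mice and 3.48% in Dp(16)1Yey/+ mice had such a p. The main isoform of Slc12a5 had a log2 fold change of 2.07 ± 1.62 in 189N3 mice, where the whole gene had 0.04. It was 0.19 without littermate replicate 2, in which this isoform was estimated at 2.92, against 135 and 274 in the other littermates. Isoform values are estimated shares of the fragments of a gene, so their errors include those of the division.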

How the data were processed

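Hippocampal RNA of 14 samples was sequenced as paired-end reads of 100 bp. The authors mapped reads to mm10 with Bowtie and TopHat, and merged and quantified transcripts with Cufflinks. The signal values they deposited per locus are fragments divided by 1 size factor per library; whole fragments were recovered from them for 100% of values above 0 in each library (to within 0.05 of a fragment or the rounding of the table). The isoform signal values are estimated shares. Of 59796 loci, 56493 were matched to the deposited transcript map by their isoform sums, and 24011 of these had a gene name. Values were analysed as log2(value + 1) with limma 3.58.1 (trend, R 4.3.3), each model against its own littermates, for loci with a mean of at least 10, with Benjamini-Hochberg adjustment over all loci at 0.05; fold changes of low genes are understated on this scale. Single values were tested by exact two-sided permutation. edgeR 4.0.16 and DESeq2 1.42.0 on recovered fragments were alternatives. The strand setting of counting is not given in the sources used here. The fit was tested on simulated data. The genes, lists and tests were chosen with earlier results of these data known. Genes named besides the 7 were the other subunit and glycine receptor genes, Slc12a2, Gphn, Dyrk1a, Xist and Ddx3y. Also named were the genes of each list with the smallest p-values, and up to 3 loci most like each gene. Some genes of these lists, and values that need them, are not reported here. Sequences come from RefSeq, and matched all 7 genes; proteins were not used here.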

Additional observations from a re-analysis of the deposited data

How the results depend on the processing

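Of 525 log2 fold changes of the 7 genes computed under alternatives, 0 passed the adjusted threshold and 25 changed sign. In 189N3 mice the number of loci called, 0 as reported, was 3 with median-ratio size factors, 2 with TMM factors, 1 with Xist as a covariate, 15 by DESeq2 and 0 to 28 with 1 library left out (28 without littermate replicate 1). In Dp(16)1Yey/+ mice it was 8 by DESeq2 and 0 to 3 with 1 library left out (3 without the library labelled replicate 1), and for the difference between models 0 to 1. The replicate numbers were not used to pair the samples. Deviations of same-numbered libraries from their group means correlated negatively in every pair, from -0.445 to -0.0289. Deviations from means of 3 or 4 libraries sum to 0, so these values cannot decide whether the numbers pair samples. A replicate block gave 72 loci in 189N3 mice and 0 isoforms called in either model.

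Of the 7 genes, those with an unadjusted p under 0.05 in Dp(16)1Yey/+ mice, 1 as reported, numbered 0 without an intensity trend, with alike littermates averaged, with Xist as a covariate, by edgeR and without littermate replicates 2 and 3, and 3 without littermate replicates 0 and 1. These pairs were left out after seeing the data. Each of these fits kept a single nearly alike pair of littermates, so the littermate spread in it is only that within the pair. The share of all loci with such a p under these settings is not given, so these counts are not read as results about the genes. With 1 library left out they numbered 0 to 3, and 0 to 1 in 189N3 mice, and the median of the 7 genes ran from -0.074 to 0.31 in 189N3 mice and from -0.76 to -0.24 in Dp(16)1Yey/+ mice.

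Gabra4 in 189N3 mice stood at 0.0056 with median-ratio size factors, 0.0065 with Xist and 0.012 by DESeq2. Without littermate replicates 2 and 3, Gabra3, Gabrb2 and Slc12a5 stood at 0.68, 0.29 and 0.21 in Dp(16)1Yey/+ mice, and at 0.49, 0.026 and 0.17 for the difference between models. With 1 library left out, values in 189N3 mice ran from -0.19 to 0.46 for Gabra3, -0.12 to 0.11 for Gabra4, -0.066 to 0.36 for Gabra5, -0.32 to 0.082 for Gabrb1 and -0.65 to 0.45 for Slc12a5. In Dp(16)1Yey/+ mice they ran from -0.54 to 0.088 for Gabra3 and -0.26 to 0.15 for Gabrb2, and for the difference between models from -0.64 to 0.0059 for Gabra2. The log2 ratio of Slc12a5 to Slc12a2 ran from -0.50 to 0.43 in 189N3 mice, and that of Gabra3 to Gabra2 from -0.12 to 0.68 in 189N3 mice and -0.18 to 0.74 in Dp(16)1Yey/+ mice.

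Main isoforms ran in 189N3 mice from -0.11 to 0.16 for Gabra2, -0.19 to 0.45 for Gabra3, -0.14 to 0.085 for Gabra4, -0.17 to 0.21 for Gabra5 and -0.32 to 0.082 for Gabrb1, and in Dp(16)1Yey/+ mice from -0.47 to 0.11 for Gabra3 and -0.32 to 0.13 for Gabrb2. Isoforms called in 189N3 mice, 22 as reported, numbered 3 with a pseudocount of 0.1, 14 with 10, 0 with a mean of at least 100 and 0 to 12 with 1 library left out; in Dp(16)1Yey/+ mice, 13 as reported, they numbered 0 with a mean of at least 100 and 4 to 43. The cause of these changes was not tested. With 3 or 4 libraries a group, and nearly alike pairs among the littermates of Dp(16)1Yey/+ mice, the spread between libraries rests on few values.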
